A study of Mus musculus with 12 samples.

Results

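The liver was examined here for 10 genes that supply cytosolic acetyl-CoA, move its precursor citrate, or handle acetyl groups beside them, chosen by symbol: Acly, Acss1, Acss2, Acss3, Acot12, Aacs, Crat, Slc25a1, Slc13a5 and Slc33a1. Rows for 9 of the 10 were found among the 12284 named genes of the deposited expression table, and Acss1 was not analysed here. The 6 DKO (double knockout) liver libraries came from Acly f/f; Acss2 f/f mice given AAV8-TBG-Cre, an adeno-associated virus that drives Cre recombinase from a hepatocyte promoter. The 6 WT libraries came from mice with the same floxed alleles that received AAV8-TBG-GFP, so the 2 groups differed in Cre and in GFP as well as in the deletions, and these cannot be told apart. All mice were injected at 6 to 8 weeks of age, started a Western diet (Teklad TD.88137) 1 week afterwards and ate it for 6 weeks before the livers were freeze-clamped. No label says that each library was a separate mouse, so p-values describe the spread between libraries. Levels are log2 CPM, read counts on a log2 scale relative to the size of the library, as normalized by the authors.

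Acetyl-CoA for fatty acid and sterol synthesis is needed in the cytosol, whereas most of it is made in mitochondria. It leaves them as citrate through the carrier SLC25A1, and ATP citrate lyase (ACLY) splits the citrate into acetyl-CoA and oxaloacetate. ACSS2 offers a second route by activating acetate. Both genes are textbook targets of the lipogenic factor SREBP, and Acly is also one of the lipogenic factor ChREBP. Around them stand the mitochondrial synthetases ACSS1 and ACSS3, the acetoacetate-activating enzyme AACS, the hydrolase ACOT12, the acetyltransferase CRAT that passes acetyl groups to carnitine, the plasma membrane citrate importer SLC13A5 and the endoplasmic reticulum acetyl-CoA transporter SLC33A1.

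The proximal promoters of the 2 deleted genes and of the citrate carrier are shown first, since the levels of these 3 genes are set against each other across libraries further on. They are the 250 bases before the annotated start in RefSeq (mouse GRCm38.p6, a different build from the GRCm39 that the submitters' processing notes name), written along the gene: chr11:100528001-100528250 on the minus strand for Acly, chr2:155517793-155518042 on the plus strand for Acss2 and chr16:17928220-17928469 on the minus strand for Slc25a1. Capitals mark the GC box GGGCGG read on either strand and, in Slc25a1 alone of the 3, the E-box CACGTG.
Acly: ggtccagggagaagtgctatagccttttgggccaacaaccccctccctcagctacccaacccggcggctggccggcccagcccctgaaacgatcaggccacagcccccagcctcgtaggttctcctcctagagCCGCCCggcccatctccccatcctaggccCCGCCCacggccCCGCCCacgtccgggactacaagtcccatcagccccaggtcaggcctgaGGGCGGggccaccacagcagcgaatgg
Acss2: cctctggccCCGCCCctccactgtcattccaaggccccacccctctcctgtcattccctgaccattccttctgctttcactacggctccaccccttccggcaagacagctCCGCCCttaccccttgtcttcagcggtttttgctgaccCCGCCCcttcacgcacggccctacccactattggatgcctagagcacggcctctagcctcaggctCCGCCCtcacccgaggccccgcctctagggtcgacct
Slc25a1: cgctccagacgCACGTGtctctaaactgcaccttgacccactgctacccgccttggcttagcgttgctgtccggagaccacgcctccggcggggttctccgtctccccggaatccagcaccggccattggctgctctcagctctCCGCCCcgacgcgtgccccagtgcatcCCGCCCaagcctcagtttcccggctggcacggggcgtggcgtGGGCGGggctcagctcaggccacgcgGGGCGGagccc
Each of the 3 windows held 4 GC boxes, and no match overlapped another. In Acly they began 117, 88, 76 and 27 bases before the start, in Acss2 241, 140, 102 and 37 bases before it, and in Slc25a1 106, 79, 37 and 11 bases before it. At least 1 GC box stood in 32.7% of the 32851 promoter windows of this length in the table, and 4 or more in 4.09%. The E-box of Slc25a1 lay 239 bases before the start, and 6.02% of windows held one. The sterol response element TCACNCCAC, found in 1.05% of windows, had no match in the windows of the 8 members that the table lists (Acss3 and Crat were not matched), which says only that these letters are not there.

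Both deleted genes were strongly reduced in the DKO libraries, and neither was lost. Acly stood at 6.60, 5.70, 4.42, 4.61, 4.62 and 4.67 log2 CPM in DKO 1 to 6, against 9.35, 7.98, 7.55, 6.75, 6.56 and 7.47 log2 CPM in WT 1 to 6. DKO 1 lay just above the lowest WT library, WT 5, and the other 5 DKO libraries lay below every WT library. Acss2, the acetate-activating synthetase, stood at 5.74, 3.59, 4.83, 3.81, 3.78 and 4.21 log2 CPM in DKO 1 to 6 and at 7.45, 6.50, 6.28, 6.12, 6.36 and 6.35 log2 CPM in WT 1 to 6. Its groups did not overlap, which held for 1.38% of all genes in this direction.

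**Figure D1:**
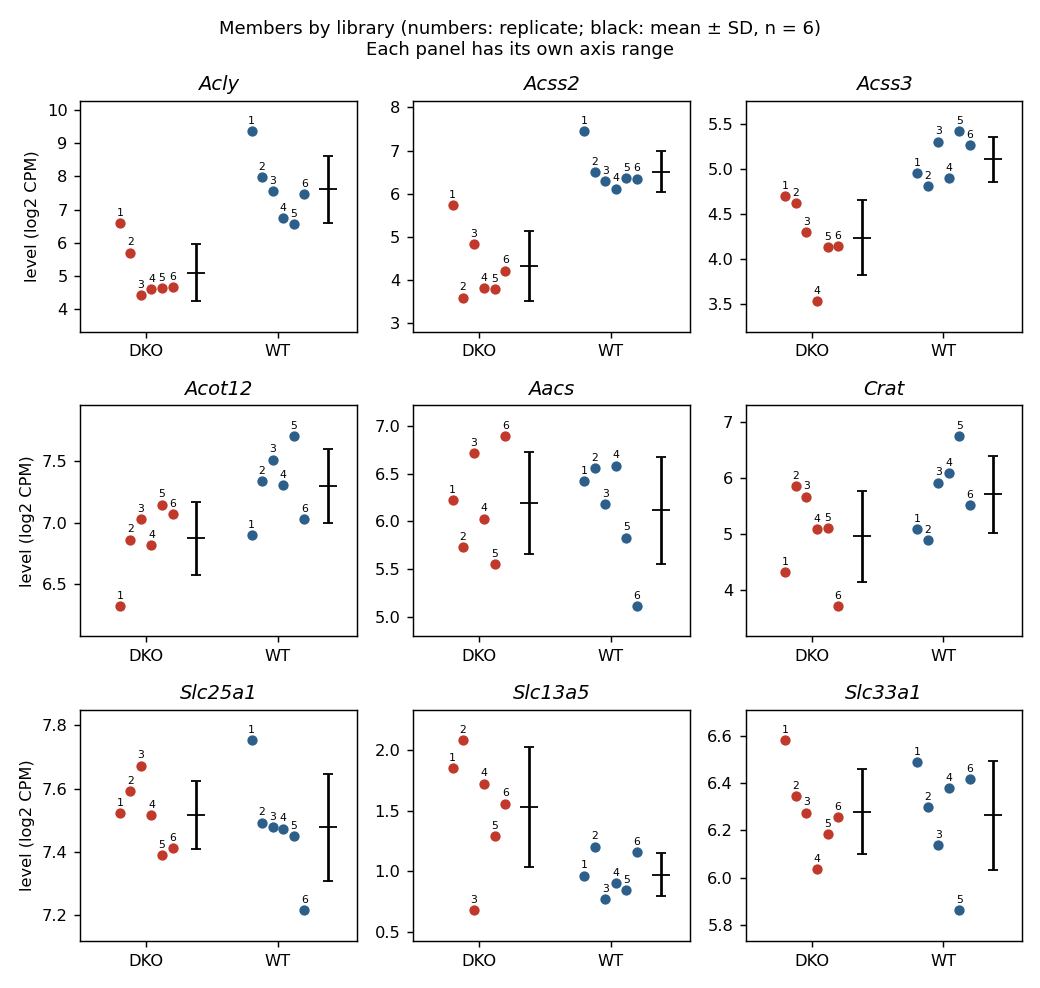
Level of each of the 9 measured members (vertical axis, log2 CPM, own range in each panel) in the DKO and WT libraries; each point is a library with its replicate number and the black bar is the mean ± SD (n = 6). Acss2 and Acss3 are separated between the groups, Acly is separated except for DKO 1, and the groups overlap in the other 6 panels.

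As a share of the WT mean on the log scale, residual Acly was 49.7% in DKO 1 and 26.6% in DKO 2, and 10.9% to 13.0% in DKO 3 to 6. Residual Acss2 was 58.5% in DKO 1, 31.2% in DKO 3 and 20.4% in DKO 6, and 13.2% to 15.3% in DKO 2, DKO 4 and DKO 5. DKO 1 had the highest residual level of both transcripts, while DKO 2 ranked second for Acly and lowest for Acss2, and DKO 3 ranked second for Acss2 and lowest for Acly. The 95% interval of the residual level was 8.87% to 34.9% of WT for Acly (difference of -2.51 on the log2 scale, SE 0.46; adjusted p = 0.0165, limma) and 13.4% to 36.1% for Acss2 (-2.18, SE 0.33; adjusted p = 0.00571). From mean CPM in place of mean log2 CPM the residual levels were 16.6% for Acly (40.8 ± 29.8 CPM in DKO and 245.5 ± 208.1 CPM in WT) and 24.3% for Acss2 (23.3 ± 15.8 CPM in DKO and 96.0 ± 39.0 CPM in WT; SD, n = 6 each). In bulk liver, fewer cells with a transcript and less transcript per cell cannot be told apart, and Cre was directed at hepatocytes alone. The values count whole genes and the sources used here do not name the floxed exons, so transcripts that lack the floxed part may be included.

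The share kept by Acly was not distinguished from the share kept by Acss2. The log2 CPM of Acly minus that of Acss2 averaged 0.78 ± 0.81 in DKO and 1.10 ± 0.61 in WT (SD, n = 6 each), a change of -0.32 (2-sided exact permutation p = 0.452). The DKO libraries ran from -0.41 in DKO 3 to 2.11 in DKO 2, against 0.20 to 1.91 in WT. A p of this size does not show that the 2 genes were reduced alike.

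The 2 libraries numbered 1, which led their groups in Acly, also had the most Fasn. Fasn encodes fatty acid synthase and Acaca the acetyl-CoA carboxylase before it, the main cytosolic users of acetyl-CoA, and neither passed the test in DKO (0.20 on the log2 scale for both; SE 0.68 and adjusted p = 0.923 for Fasn, SE 0.32 and adjusted p = 0.814 for Acaca, by limma). Fasn was highest in DKO 1 (10.05 log2 CPM) and DKO 2 (9.22) among DKO libraries and in WT 1 (9.87) and WT 2 (8.50) among WT libraries, the same libraries that led each group in Acly. Set against Fasn of the same library, Acly lay at -3.45, -3.52, -3.72, -1.69, -2.18 and -2.21 on the log2 scale in DKO 1 to 6, against -0.52, -0.52, 0.15, 0.17, -0.10 and 0.28 in WT 1 to 6. Every DKO library then lay below every WT library, including DKO 1. Set against Fasn, the SD of Acly was 0.87 in DKO and 0.36 in WT, where Acly alone had 0.86 in DKO and 1.00 in WT, so that the spread was smaller in WT only.

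Relative to Fasn, Acly in DKO was 15.3% of WT (log2 difference -2.70; 2-sided exact permutation p = 0.00216, the smallest that 6 against 6 libraries can give). Relative to Acaca it was also 15.3% (difference -2.71), with -3.48 to -1.73 on the log2 scale in DKO and -0.54 to 0.96 in WT. Acss2 was 19.2% of WT relative to Fasn, with -5.63 to -2.49 in DKO just clear of -2.43 to -0.30 in WT, and 19.1% relative to Acaca. The SD of Acss2 set against Fasn was 1.20 in DKO and 0.85 in WT, wider than the 0.82 in DKO and 0.48 in WT of Acss2 alone. These ratios to other genes were added after the levels had been seen.

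**Figure D2:**
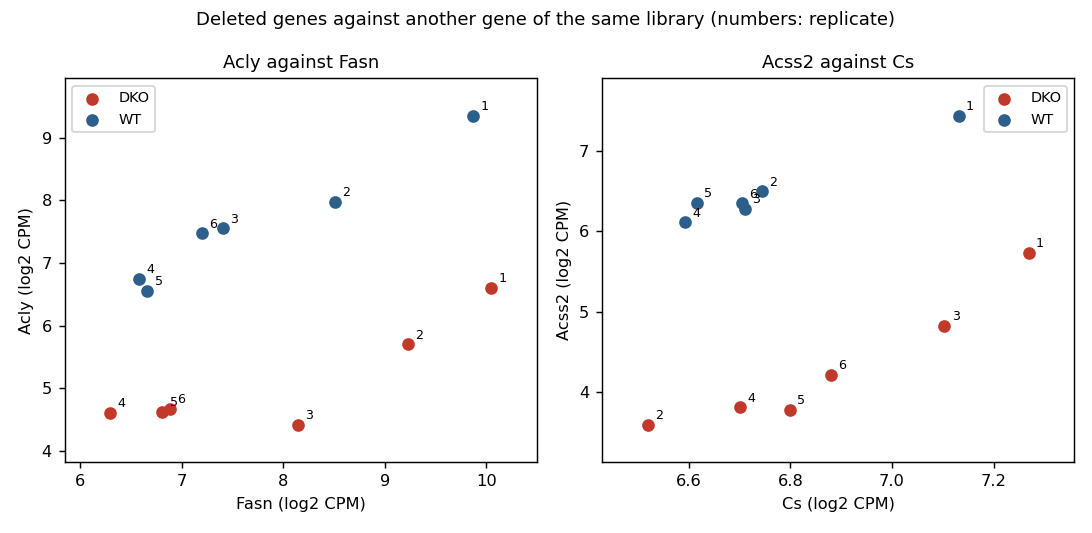
Acly against Fasn (left) and Acss2 against Cs (right), both axes in log2 CPM, 1 point per library with its replicate number. At a given level of the partner gene the 6 DKO libraries lie below the 6 WT libraries in each panel; DKO 1 and WT 1 are at the upper end in their groups.

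Within a group, Acly, Acss2 and Slc25a1 were compared pair by pair over 6 libraries, which gave 6 relations. The closest was Acly with Acss2 in WT (Pearson r = 0.90, exact permutation p = 0.0264, adjusted p = 0.158; Spearman rho = 0.60, exact p = 0.242), and without WT 1 and WT 5, the libraries farthest from the median of Acly, r was 0.96 over the other 4. In DKO the same pair had r = 0.54 (exact p = 0.303, adjusted p = 0.454; rho = 0.03, exact p = 1), and r = -0.79 without DKO 1 and DKO 2, so that its sign rested on those libraries. Acly and Slc25a1 had r = 0.12 in DKO (exact p = 0.840, adjusted p = 0.840; rho = -0.09, exact p = 0.919) and 0.64 in WT (exact p = 0.135, adjusted p = 0.275; rho = 0.83, exact p = 0.0583). Without DKO 1 and DKO 2 the DKO value was -0.94, and without WT 1 and WT 5 the WT value was 0.01. For Acss2 and Slc25a1 the values were 0.26 in DKO (exact p = 0.626, adjusted p = 0.752; rho = 0.26, exact p = 0.658) and 0.75 in WT (exact p = 0.138, adjusted p = 0.275; rho = 0.54, exact p = 0.297), with -0.66 in DKO without DKO 1 and DKO 3, and 0.23 in WT without WT 1 and WT 4. All 3 DKO relations thus changed sign without the 2 farthest libraries, with exact permutation p of 0.208, 0.0833 and 0.333 over the 4 left. The r of 0.96 in WT had an exact p of 0.125. None of the 6 passed an adjusted exact p of 0.05, over 6 libraries or over 4, so no sign over 4 libraries was established.

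Among the 7 undeleted members measured, none rose and 1, Acss3, fell by limma at an adjusted p below 0.05, where 1.12% of the 12284 genes were called lower (138) and 0.619% higher (76). At an unadjusted p below 0.05 stood 3 of the 7, 2 lower and 1 higher, as did 16.4% of all genes. The fall of the other 2 members called, Acly and Acss2, was set by the deletions. After each library was centred on its hepatocyte markers, the genes called numbered 31 lower and 102 higher, the median of all genes moved by 0.10 on the log2 scale, and the members called were again 3 lower and 0 higher. The median log2 fold change was 0.02 over the 7 undeleted members and 0.004 over all genes.

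**Figure D3:**
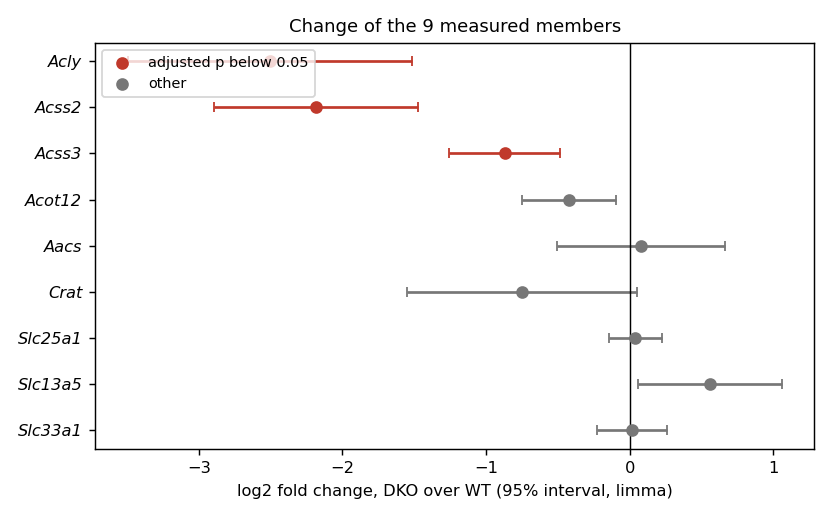
Log2 fold change of DKO over WT for the 9 measured members (points) with the 95% interval from limma (bars); red marks an adjusted p below 0.05. The intervals of Acly, Acss2 and Acss3 lie wholly below 0, and those of Slc25a1 and Slc33a1 are narrow around 0.

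Acss3, a mitochondrial synthetase that activates short-chain acids, propionate above all, was the undeleted member with the clearest difference. It stood at 4.70, 4.62, 4.30, 3.53, 4.14 and 4.15 log2 CPM in DKO 1 to 6 and at 4.95, 4.82, 5.31, 4.90, 5.42 and 5.27 log2 CPM in WT 1 to 6. All DKO libraries lay below all WT libraries, DKO 4 lowest. The level in DKO was 54.7% of WT (95% interval 41.8% to 71.5%; log2 fold change -0.87, SE 0.18; limma adjusted p = 0.0286). The call was lost on leaving out any 1 of DKO 3, DKO 5, WT 3, WT 5 and WT 6 (adjusted p up to 0.0758), and without the mean trend of limma (adjusted p = 0.0532).

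Aacs, which activates acetoacetate for lipid synthesis in the cytosol, had mean levels that differed by less than the spread of either group. Its levels were 6.22, 5.73, 6.72, 6.03, 5.56 and 6.90 log2 CPM in DKO 1 to 6, against 6.43, 6.56, 6.18, 6.59, 5.83 and 5.11 log2 CPM in WT 1 to 6. The groups overlapped over most of their range, with DKO 6 highest and WT 6 lowest. The difference was 0.08 (SE 0.27; limma adjusted p = 0.925), and its 95% interval ran from 0.70-fold to 1.59-fold.

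Acot12, the cytosolic hydrolase that turns acetyl-CoA back into acetate, was lower on average without passing the test. It stood at 6.33, 6.86, 7.03, 6.82, 7.15 and 7.07 log2 CPM in DKO 1 to 6 and at 6.90, 7.34, 7.51, 7.31, 7.70 and 7.03 log2 CPM in WT 1 to 6. The WT mean exceeded each of the 6 DKO libraries, and 3 of them lay below the lowest WT library. The level in DKO was 74.7% of WT (95% interval 59.4% to 93.8%; log2 fold change -0.42, SE 0.15; limma adjusted p = 0.177). With the replicate number as a block its limma adjusted p was 0.0385, although the check used did not establish that the numbers pair the libraries.

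Crat, the carnitine acetyltransferase, varied widely in both groups. Its levels were 4.32, 5.86, 5.67, 5.09, 5.11 and 3.71 log2 CPM in DKO 1 to 6 and 5.09, 4.89, 5.92, 6.08, 6.75 and 5.52 log2 CPM in WT 1 to 6. The ranges overlapped, with DKO 6 and DKO 1 below all WT libraries and WT 5 highest. The mean in DKO was 59.5% of that in WT (95% interval 34.2% to 103.5%; log2 fold change -0.75, SE 0.37; limma adjusted p = 0.335).

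Slc25a1, the mitochondrial citrate carrier that feeds ACLY, had the smallest SD of the 9 members in both groups. It stood at 7.52, 7.59, 7.67, 7.52, 7.39 and 7.41 log2 CPM in DKO 1 to 6, against 7.75, 7.49, 7.48, 7.47, 7.45 and 7.22 log2 CPM in WT 1 to 6. The 6 DKO values lay within the range of the WT values. The difference was 0.04 (SE 0.09; limma adjusted p = 0.868), with a 95% interval of 0.90-fold to 1.17-fold.

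Slc13a5, which imports citrate from the blood, had a low level in every library and a higher mean in DKO that did not pass. Its levels were 1.85, 2.08, 0.68, 1.72, 1.29 and 1.56 log2 CPM in DKO 1 to 6 and 0.96, 1.20, 0.77, 0.90, 0.84 and 1.16 log2 CPM in WT 1 to 6. In 5 of 6 DKO libraries it exceeded every WT library, while DKO 3 was the lowest of all 12. The mean in DKO was 1.47-fold that in WT (95% interval 1.04-fold to 2.08-fold; log2 fold change 0.56, SE 0.23; unadjusted p = 0.0320, limma adjusted p = 0.250). Leaving out DKO 3 moved the difference to 0.73, which did not pass either.

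Slc33a1, which carries acetyl-CoA into the endoplasmic reticulum, did not separate the groups. It stood at 6.58, 6.35, 6.28, 6.04, 6.18 and 6.26 log2 CPM in DKO 1 to 6 and at 6.49, 6.30, 6.14, 6.38, 5.86 and 6.42 log2 CPM in WT 1 to 6. DKO 1 was the highest library and WT 5 the lowest. The difference was 0.02 (SE 0.11; limma adjusted p = 0.966), with a 95% interval of 0.85-fold to 1.20-fold. The small differences of Slc33a1, Slc25a1 and Aacs changed sign when certain single libraries were left out.

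The enzymes that use, supply or divert the same acetyl-CoA were counted in lists that leave out the members. Of 10 measured cytosolic users (carboxylases, fatty acid synthase, thiolase, early sterol synthesis enzymes and acetyltransferases) 6 were higher, 4 lower and 0 called by limma (1 at an unadjusted p below 0.05), with a median log2 fold change of 0.06. Nat8, an acetyltransferase, came closest (log2 fold change -1.08, SE 0.34; limma adjusted p = 0.116). Of 14 measured genes of mitochondrial pyruvate use (the pyruvate carrier, pyruvate dehydrogenase with the kinases that block it and the phosphatases that restore it, and pyruvate carboxylase) 9 were lower, 1 fell and 0 rose. Over all genes 49.2% were lower. An unadjusted p below 0.05 was reached by 5 of the 14 lower and 1 higher, and by 16.4% of all genes. The 9 lower genes include the kinase genes Pdk1 (log2 fold change -0.12) and Pdk2 (-0.23), which act against the rest, so the count gives no direction for the pathway. The gene that fell was Pcx, pyruvate carboxylase, which makes the oxaloacetate that joins acetyl-CoA in citrate; it averaged 7.20 ± 0.28 log2 CPM in DKO and 7.84 ± 0.14 log2 CPM in WT (SD, n = 6 each), a log2 fold change of -0.64 (SE 0.12) with no overlap (adjusted p = 0.0177).

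Of the 12 genes of citrate formation and conversion 10 were lower, with a median log2 fold change of -0.15. At an unadjusted p below 0.05 stood 3 lower and 0 higher, and 1 gene fell. That was Idh3a, a subunit of the mitochondrial isocitrate dehydrogenase, at -3.26, -1.37, 3.14, -3.21, -3.26 and -3.26 log2 CPM in DKO 1 to 6 and at 1.97 to 3.18 log2 CPM in WT (log2 fold change -4.38; limma adjusted p = 0.0317). DKO 3 was as high as the WT libraries, 3 DKO libraries were at or within rounding of the lowest value of the table (-3.26 log2 CPM), and the call was lost without any 1 of DKO 1, DKO 4, DKO 5 and WT 2 to WT 6. At such levels the fold change rests on the count added before the log, which is not known. The level was low in WT too, at 6.03 CPM on average, for a gene that liver mitochondria are known to use; the other subunits of that enzyme, Idh3b and Idh3g, averaged 141.1 CPM and 60.8 CPM in WT (not scaled to transcript length) and were not called. Whether the row holds all reads of the gene was not tested.

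Among 13 other enzymes of acyl-CoA and acetate handling (acyl-CoA synthetases, hydrolases, the carnitine transferases of medium and long chains Crot, Cpt1a and Cpt2, and the aldehyde dehydrogenases Aldh2 and Aldh1b1) 9 were lower, 1 fell and 0 rose, with a median of -0.31. Of the 13, 6 lower and 2 higher had an unadjusted p below 0.05. The gene that fell was Acsf2, an acyl-CoA synthetase, which averaged 7.34 ± 0.19 log2 CPM in DKO and 7.82 ± 0.10 log2 CPM in WT (SD, n = 6 each), with no overlap and 71.6% left (limma adjusted p = 0.0176). Of 7 measured other transporters (of dicarboxylates, citrate or monocarboxylates, and the acylcarnitine carrier Slc25a20) 0 were called by limma and 3 had an unadjusted p below 0.05, Slc25a10, the mitochondrial dicarboxylate carrier, being closest (log2 fold change -0.44, SE 0.13; adjusted p = 0.102). It passed without WT 1 (limma adjusted p = 0.0263) but in none of the other 11 leave-out fits (adjusted p up to 0.207). Of 13 acetyltransferases and deacylases and of 16 regulators, 0 were called by limma, with 2 and 4 at an unadjusted p below 0.05. Closest were the mitochondrial deacetylase gene Sirt3 (-0.42, SE 0.12, adjusted p = 0.0864, and 0.0399 without DKO 6) and Mlxipl, which encodes ChREBP (adjusted p = 0.0928 at a log2 fold change of -0.59). Sirt3 passed in none of the other 11 leave-out fits (limma adjusted p up to 0.179). The fits without WT 1 and without DKO 6 called 373 and 306 genes in all, against 214 in the main fit.

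**Figure D4:**
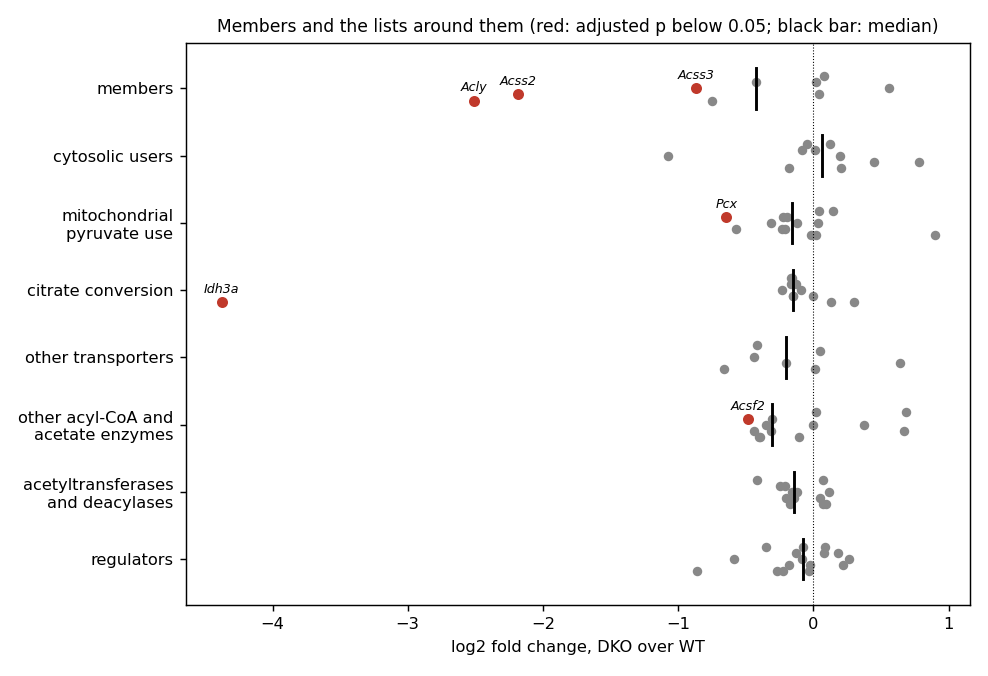
Log2 fold change of DKO over WT (horizontal axis) for every measured gene of the member list and of 7 lists around it (rows); red points have an adjusted p below 0.05 and are named, and the black bar is the list's median, with Acly and Acss2 counted among the members. The 6 called genes lie left of 0 in their rows, and Idh3a, whose DKO values reach the lowest value of the table, lies farthest out.

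The libraries were whole liver, and markers of other cells moved beside these genes. All 14 hepatocyte markers were measured, with a mean level of 11.02 to 11.33 log2 CPM in DKO and 11.05 to 11.48 log2 CPM in WT. Of these, 10 were lower and 1, Asgr1, fell (78.4% of WT, limma adjusted p = 0.0452). At an unadjusted p below 0.05 stood 4 lower and 0 higher, and the median log2 fold change was -0.17. Of 15 measured macrophage and monocyte markers all were higher, 14 at an unadjusted p below 0.05, and 3 rose. Their mean level was 3.67 to 4.44 log2 CPM in DKO and 2.86 to 3.47 log2 CPM in WT, without overlap. Gpnmb is 1 of these markers and was at the lowest value of the table in 3 WT libraries. The gap between the mean levels therefore depends on the unknown added count and does not show that the whole list separates the groups. The summed level of the 15 markers overlapped, at 460.8 to 743.0 CPM in DKO and 329.0 to 620.7 CPM in WT. Gpnmb, a glycoprotein of lipid-laden macrophages, averaged 2.23 ± 0.83 log2 CPM in DKO and -2.40 ± 1.15 log2 CPM in WT (SD, n = 6 each; adjusted p = 0.000851), where 3 WT libraries held the minimum of all values and the size of the difference therefore rests on the unknown added count. Ccr2, a receptor of recruited monocytes, was 2.65-fold higher in DKO (adjusted p = 0.0244). All 10 endothelial markers and all 10 stellate cell markers were higher with 0 called by limma (5 and 7 at an unadjusted p below 0.05), with summed levels of 347.5 to 441.1 CPM in DKO and 327.6 to 371.4 CPM in WT for endothelial cells, and 317.5 to 448.3 CPM in DKO and 241.1 to 339.7 CPM in WT for stellate cells.

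Of the 5 measured cholangiocyte markers 4 were higher and 1, Spp1, rose (1.83-fold, limma adjusted p = 0.0213). Spp1 was also the only 1 of them at an unadjusted p below 0.05, and the median log2 fold change of the 5 was 0.009. Only 3 of 9 lymphocyte markers (0 called by limma, also at an unadjusted p below 0.05; 2.45 to 5.08 CPM in DKO and 2.58 to 5.17 CPM in WT, summed) and 2 of 6 adipocyte markers were in the table, and Cfd, an adipocyte protease, fell to 5.73% of WT (adjusted p = 0.0364) with 2 DKO libraries at the lowest value. The calls of Ccr2 (without DKO 3, DKO 4, WT 2 or WT 3), Spp1 (without DKO 1 or WT 6), Asgr1 (without any library other than DKO 6 or WT 1) and Cfd (without any other than DKO 2 or WT 1) were lost in fits to 11 libraries. What part RNA of other cells has in the residual Acly and Acss2 was not tested. Centred on the hepatocyte markers of each library, the fold changes were -2.40 for Acly, -2.08 for Acss2 and -0.77 for Acss3, and each stayed below an adjusted p of 0.05.

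Genes whose levels moved most like a member were ranked by the Pearson r of deviations from the group means over 12 libraries, among 10752 genes averaging 1 log2 CPM or more, as a description. For Acly they were Paox (r = 0.93), Mak16 (0.93) and Mettl1 (0.93). For Acss2 they were Cs, citrate synthase, which forms the citrate that ACLY splits (r = 0.96), Akap2 (0.92) and Zmiz1 (0.91). Cs ran from 6.52 to 7.27 log2 CPM in DKO and from 6.59 to 7.13 log2 CPM in WT and was not called by limma (difference 0.13, SE 0.13; adjusted p = 0.670). Its r with Acss2 was 0.95 within DKO and 0.98 within WT. WT 1 was the highest WT library in both genes. It stood at 7.13 log2 CPM in Cs (next WT 2, 6.74) and 7.45 log2 CPM in Acss2 (next WT 2, 6.50). DKO 1 was likewise the highest DKO library in both, and r without these libraries was not computed.

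For the undeleted members the closest genes were Golga1 (r = 0.90), Uqcrc2 (0.88) and Etfdh (0.88) for Acss3, and Acad11 (0.98), Dlst (0.97) and Carkd (0.94) for Acot12. Uqcrc2, Etfdh and Dlst encode parts of the mitochondrial respiratory chain, of electron transfer from fatty acid oxidation and of the oxoglutarate dehydrogenase complex. Aacs moved most like Cpeb1 (0.88), Prmt1 (0.82) and Mfsd9 (0.81), and Crat most like Crls1 (0.96), the cardiolipin synthase, Khdrbs3 (0.89) and C5ar2 (0.88). Slc25a1 had Smim1 (0.89), Mypop (0.88) and Pqbp1 (0.87), and Slc33a1 had Ccdc149 (0.96), Ipo9 (0.94) and Slc22a28 (0.93). Slc13a5 had Neb (0.94), Exoc7 (0.92) and Gm13889 (0.91). Within WT alone, r with Slc13a5 was 0.93 for Neb, 0.58 for Exoc7 and 0.28 for Gm13889, against 0.94, 0.97 and 0.98 within DKO. With so many genes ranked over 12 libraries high values arise easily, and no test was attached to them.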

How the data were processed

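RNA selected by poly-T beads was sequenced in 12 mouse liver libraries, 6 DKO and 6 WT by genotype label. The deposited table gives log2 CPM that the authors had filtered and normalized, per the file headers and name; neither the filter, the added count nor the scaling factors are stated. As tools and builds, the submitters' processing notes list kallisto 0.46.2, edgeR, limma and GRCm39 (mm39), without saying what each did. Of 12285 rows, 1 had no name and was left out (0.0148% of a library's CPM at most). Another 20 symbols that had become dates and 2 repeated ones were tested but not named. CPM summed to 906047 to 1088119 per library, and no 2 libraries were identical. Log2 values do not give back whole reads, so read depth is unknown and precision was judged from the spread between libraries.

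The 12284 named genes were fitted in limma 3.58.1 (R 4.3.3; lmFit, then eBayes with the mean trend; 2-sided) without covariates or a further filter. Benjamini-Hochberg adjustment ran over all of them, and an adjusted p below 0.05 made a call; the words "rose" and "fell" are kept for calls. Exact permutation tests, 2-sided, used the 924 ways to split 12 libraries into 6 and 6. Tested on simulated data (6 against 6 libraries, 12284 independent genes), the fit found 32.8%, 65.7% and 93.9% of genes shifted by 0.5, 1 and 2 (log2), with 6 false among 134 calls. No deviation shared by the genes of a library was simulated, so these rates need not hold for the real libraries. Plots used matplotlib 3.10.9 (Python 3.11.15). Promoter windows were matched by symbol in RefSeq for 8 of the 10 members.

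Members and lists were chosen with earlier results of these data known, and 1 list is not reported here. The text names all members, up to 4 called genes of each list around them (or the gene with the smallest p), up to 2 called genes of each cell type list and the 3 genes most like each member; the levels of Fasn, Acaca and Cs and the genes in the closing observations were added after their values were seen. Results were recomputed with no mean trend, a robust fit, log2(CPM + 1), a mean of 1 log2 CPM as a minimum, centring on library medians or hepatocyte markers, quantile scaling, array weights, a replicate block and single libraries left out. Leaving out both libraries numbered 1 and the ratios to Fasn or Acaca were chosen after seeing the data.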

Additional observations from a re-analysis of the deposited data

Results flagged for a closer look

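Of 66 sets of 6 values (members, named list genes, ratios and marker means in each group), 4 had a library set apart from the rest by a gap larger than Dixon's critical value, which chance exceeds in about 1 set in 20. Acss2 in WT 1 stood at 7.45 log2 CPM, with the next WT library at 6.50. Acss2 relative to Acaca stood at 0.18 in WT 5, with the next WT library at -0.94. Idh3a in DKO 3 stood at 3.14 log2 CPM, with the next DKO library at -1.37. The mean level of the 3 measured lymphocyte markers was -0.34 log2 CPM in DKO 6, with the next DKO library at 0.16.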

How the results depend on the processing

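Acly and Acss2 kept their direction and their call in all 10 other settings of limma (adjusted p up to 0.0369 and 0.0156). They also kept both with any 1 library left out. The log2 fold change was then -2.81 to -2.16 for Acly (limma adjusted p up to 0.0478) and -2.47 to -1.997 for Acss2 (up to 0.0217). Acss3 kept its direction; its fold change of -0.87 was no longer called without the mean trend, and it was -0.96 to -0.73 with 1 library left out. Acot12 (-0.42) was called with the replicate block, under which the genes called numbered 136 higher and 261 lower. Same-numbered libraries deviated together at r above 0.1 in 2 of 6 pairs (-0.08 to 0.29). Replicates 3 and 4 lay just below that cut, at 0.093 and 0.096. Of the 6 DKO libraries, 3 correlated best with their own number. A pairing was neither established nor excluded by this check, and none was assumed. The block changed no other call among the members, and the exact tests of Acly and Acss2 stayed below 0.05 with paired sign flips (p = 0.0312, the smallest that 6 pairs can give). Members near 0 changed sign: Slc33a1 was -0.0050 with library medians subtracted and -0.027 with array weights, and with 1 library left out the ranges were -0.064 to 0.065 for Slc33a1, -0.12 to 0.21 for Aacs and -0.012 to 0.095 for Slc25a1. Without the 2 farthest libraries, r in DKO was -0.79 for Acly with Acss2, -0.94 for Acly with Slc25a1 and -0.66 for Acss2 with Slc25a1. None of these passed an adjusted exact p of 0.05 over the 4 libraries left. Across all genes the calls were 48 higher and 61 lower with quantile normalization, 145 and 211 with array weights, 31 lower with hepatocyte centring, 76 lower without the mean trend, and 34 to 156 higher and 58 to 217 lower with 1 library left out; the cause was not tested. Members called stayed at 0 higher and 2 to 4 lower in every setting. Read depth is unknown and limits the members of low CPM, Slc13a5 above all.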

Other observations

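The relatives of the citrate importer in the same carrier family are given as values, named after they were seen. Slc13a3, a sodium-coupled dicarboxylate transporter, stood at 4.11 to 5.02 log2 CPM in DKO and 3.23 to 4.70 log2 CPM in WT (log2 fold change 0.64, SE 0.24; limma adjusted p = 0.199). Slc13a2, another member, stood at -0.77 to 0.86 log2 CPM in DKO and -0.94 to 1.41 log2 CPM in WT (-0.66, SE 0.39; adjusted p = 0.428). Acacb, the carboxylase whose malonyl-CoA restrains mitochondrial fatty acid entry, stood at 6.81 to 8.28 log2 CPM in DKO and 5.22 to 8.13 log2 CPM in WT (0.78, SE 0.40; adjusted p = 0.348). Srebf1, the gene of SREBP1, stood at 7.77 to 9.78 log2 CPM in DKO and 8.60 to 10.07 log2 CPM in WT (-0.86, SE 0.35; adjusted p = 0.230).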
